A study of Homo sapiens with 9 samples.

Results

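The inhibitor of kappa B kinases (IKKs) CHUK and IKBKB, the IKK-related kinases IKBKE and TBK1, the receptor-interacting kinases RIPK1, RIPK2, RIPK3 and RIPK4, and the interleukin-1 receptor-associated kinases IRAK1 and IRAK4 were examined in a kinome-wide CRISPR knockout screen. The 10 genes were chosen by name for their place in inflammatory and cell death signalling, and all 10 were in the count table, out of 763 genes. Each had 4 single guide RNAs (sgRNAs), so 40 of the 3152 sgRNAs counted belonged to them, and all 40 passed the filter on low counts. The screen was carried out in RH4, a single human rhabdomyosarcoma cell line with the PAX3::FOXO1 fusion, infected with the Brunello kinome library at 1000 cells per sgRNA. The libraries fell into 3 groups of 3. The pralatrexate group had grown for 10 days in 1.5 nM pralatrexate, an antifolate drug that blocks dihydrofolate reductase. The vehicle group had grown for 10 days in vehicle control. The baseline group was collected after 72 h in 0.25 µg/ml puromycin, which was started 48 h after infection. These times are those of the labels and the study's methods, while its main text gives a longer selection, so how long after infection baseline was taken is uncertain. Cells of both treated groups had recovered for 72 h after the selection and were passaged every 4 days. All groups carried the same library, and each targeting sgRNA is listed under 1 gene. No sgRNA was assigned to 2 related kinases at once, so their joint loss was not tested.

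NF-κB is a transcription factor held in the cytoplasm by inhibitor proteins. IKBKB and CHUK are the catalytic subunits of the IKK complex, which phosphorylates those inhibitors so that they are degraded, and CHUK also acts in the slower, non-canonical branch of the pathway. TBK1 and IKBKE phosphorylate interferon regulatory factors after nucleic acids are sensed in the cytoplasm, and TBK1 also acts in selective autophagy. RIPK1 sits below the tumour necrosis factor receptor, where it serves as a scaffold for NF-κB signalling or as a kinase that starts cell death, and RIPK3 phosphorylates MLKL in necroptosis. RIPK2 is the adaptor kinase of the NOD receptors, and RIPK4 is known for its role in keratinocyte differentiation. IRAK4 and IRAK1 relay signals from Toll-like and interleukin-1 receptors through MyD88.

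Positions are those of the GENCODE annotation of GRCh38. CHUK lies on chromosome 10 from 100188300 to 100229596, IKBKE on chromosome 1 from 206470476 to 206496889, and TBK1 on chromosome 12 from 64452090 to 64502114. RIPK1 lies on chromosome 6 from 3063824 to 3115187, RIPK3 on chromosome 14 from 24336025 to 24340022, and RIPK4 on chromosome 21 from 41739369 to 41767089. IRAK1 lies on chromosome X from 154010506 to 154019902 and IRAK4 on chromosome 12 from 43758944 to 43798307. IKBKB and RIPK2 are both on chromosome 8. These are gene spans, and the exon cut by each sgRNA was not placed here.

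What was counted is the sgRNA cassette in genomic DNA, so the values follow how many cells carried each knockout construct, not how strongly the gene was expressed. Libraries held 2468136 to 4227230 reads with pralatrexate, 3194504 to 4602712 with vehicle and 3483100 to 4431337 at baseline. The coefficient of variation between libraries of a group beyond read sampling was 13.2%, from edgeR's common dispersion over all groups. The 40 sgRNAs made up 1.27% of the sgRNAs in the table. They took 1.40, 1.40 and 1.46% of all reads with pralatrexate, 1.40, 1.39 and 1.46% with vehicle, and 1.33, 1.31 and 1.35% at baseline. Every library of the treated groups was thus above every baseline library. The 100 non-targeting sgRNAs, which cut no gene, moved further the same way, with 4.11 to 4.19% of reads with pralatrexate, 4.16 to 4.25% with vehicle and 3.27 to 3.30% at baseline. The labels number the libraries as repeats and the study describes them in places as technical replicates, so the p-values below cover no more than the variation among these libraries, and that variation may be technical.

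The level of a gene in a library is given as the mean log2 CPM (counts scaled to library size) of its 4 sgRNAs, and its log2 fold change as the mean over those sgRNAs. Levels are set against other groups only, since they depend on how much of each sgRNA the library held. An sgRNA was called by edgeR's quasi-likelihood test and a gene by robust rank aggregation of those tests, which asks whether several sgRNAs of a gene rank near one end of the whole library. Both used a false discovery rate (FDR) of 0.05, adjusted by Benjamini and Hochberg over all 3145 sgRNAs or all 763 genes tested.

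**Figure D1:**
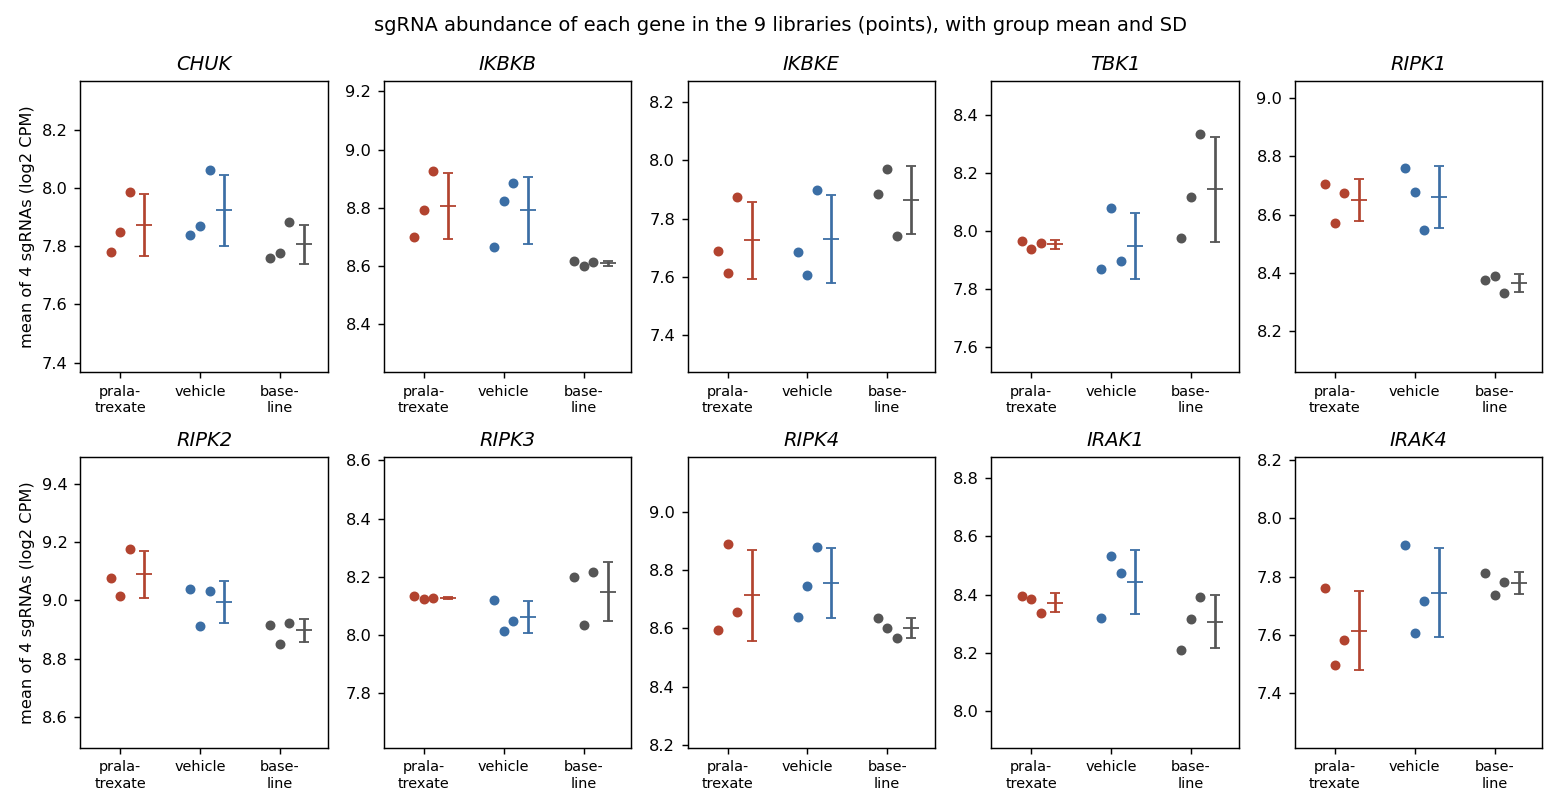
Mean log2 CPM of the 4 sgRNAs of each gene (vertical axis, spanning 1 log2 unit in each panel) in 3 pralatrexate, 3 vehicle and 3 baseline libraries. Points are libraries and bars are the group mean and SD. RIPK1 and IKBKB sat higher in all pralatrexate and vehicle libraries than in any baseline library, an order that depends on scaling over all sgRNAs, since both log2 fold changes were below 0 when scaled to the non-targeting sgRNAs.

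Vehicle at day 10 was compared with baseline to ask whether RH4 cells lost or gained these knockouts in the absence of drug. None of the 10 genes passed the gene test in either direction, against 6.68% of all genes depleted and 0.393% enriched. Their log2 fold changes ran only between -0.19 for TBK1 and 0.30 for RIPK1, where the whole library ran between -3.25 and 0.91. The median of the 10 was 0.11, against 0.018 over all genes. At an unadjusted p under 0.05, 2 of the 10 were enriched, RIPK1 and RIPK4, and 0 were depleted, against 60 and 115 of the 763 genes. limma on gene levels, which tests a shift of the mean and not the rank of the sgRNAs, called RIPK1 and IKBKB higher in the scaling over all sgRNAs, against 34.3% of all genes called in either direction. Its 95% interval ran between 0.16 and 0.43 for RIPK1 and between 0.05 and 0.31 for IKBKB. For RIPK4 it ran between 0.019 and 0.29 and for TBK1 between -0.36 and -0.026. These last intervals left out 0, but limma did not call RIPK4 (FDR 0.070) or TBK1 (FDR 0.066). The intervals of the other genes held 0.

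RIPK1 had the highest value of the 10. Its level was 8.76, 8.68 and 8.55 log2 CPM in vehicle libraries, against 8.38, 8.39 and 8.33 in baseline libraries. The lowest vehicle library was thus above the highest baseline library. The log2 fold change was 0.30 ± 0.36 (SD, 4 sgRNAs), or 1.23-fold, the 97.6th percentile of all genes, with an FDR of 0.62 by rank aggregation. This value is relative to all sgRNAs of the library. Scaled to the non-targeting sgRNAs, the log2 fold change of RIPK1 was -0.036, so its direction depended on the scaling.

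The 4 sgRNAs of RIPK1 did not move together. sgRNA 1 had 353.5, 358.4 and 316.2 CPM with vehicle, against 236, 174.8 and 185.6 CPM at baseline. It rose by a log2 fold change of 0.79 ± 0.15 (SE; edgeR FDR 0.00016), the largest increase among the 40 and above the highest non-targeting sgRNA (0.67). sgRNAs 2 and 3 had log2 fold changes of 0.26 and 0.23, and sgRNA 4 had -0.08. Without sgRNA 1, an alternative added after its value was seen, the mean of the other 3 was 0.14.

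The catalytic subunits of the IKK complex also had positive values. IKBKB stood at 8.66, 8.82 and 8.88 log2 CPM in vehicle libraries, against 8.62, 8.60 and 8.61 in baseline libraries. These did not overlap, with a narrow gap between the lowest vehicle library and the highest baseline one. The log2 fold change was 0.19 ± 0.16 (SD, 4 sgRNAs; FDR 0.75), and -0.15 when scaled to the non-targeting sgRNAs. One sgRNA of IKBKB, sgRNA 3, rose by 0.38 ± 0.12 (SE; edgeR FDR 0.018), with 418.6, 418 and 506.4 CPM with vehicle against 353.9, 315.3 and 360.7 CPM at baseline. CHUK overlapped between the groups, at 7.92 ± 0.12 with vehicle and 7.81 ± 0.07 log2 CPM at baseline (SD, n = 3 each). Its log2 fold change of 0.12 became -0.21 under scaling to the non-targeting sgRNAs.

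The IKK-related kinases had the lowest values. TBK1 stood at 7.87, 8.08 and 7.90 log2 CPM in vehicle libraries, against 7.98, 8.12 and 8.33 in baseline libraries, so the groups overlapped. Its log2 fold change was -0.19 ± 0.17 (SD, 4 sgRNAs), with 3 of 4 sgRNAs lower and an FDR for depletion of 0.68. It was -0.53 when scaled to the non-targeting sgRNAs (FDR 0.79). Without baseline replicate 3, the highest library, it was -0.093. sgRNA 2 fell by 0.39 ± 0.12 (SE; edgeR FDR 0.023), with 300.5, 304.1 and 310.6 CPM with vehicle against 350, 406.7 and 445 CPM at baseline. IKBKE, the closest relative of TBK1, had a log2 fold change of -0.12 ± 0.28 over its sgRNAs, which ran between -0.43 and 0.20, and -0.45 when scaled to the non-targeting sgRNAs. The spread among the 4 sgRNAs of IKBKE was thus wider than its mean. sgRNA 2, at 0.20, had 175.8, 150.8 and 329.4 CPM with vehicle, against 197.9, 183.7 and 189.1 CPM at baseline. Without vehicle replicate 3 the log2 fold change of IKBKE was -0.22. sgRNA 3, at -0.43, was not called in the fit of all 9 libraries (edgeR FDR 0.083). It was called lower by DESeq2, under scaling to the non-targeting sgRNAs, and without baseline replicate 3 or vehicle replicate 2.

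Among the other receptor-interacting kinases, RIPK4 had sgRNAs 1, 2 and 3 at 0.33, 0.30 and 0.25 and sgRNA 4 at -0.26. Its levels were 8.64, 8.74 and 8.88 log2 CPM with vehicle, against 8.64, 8.60 and 8.57 at baseline, and the lowest vehicle library lay only just above the highest baseline one. Its mean log2 fold change of 0.16 (FDR 0.59) was -0.18 under scaling to the non-targeting sgRNAs. RIPK2 had 0.10, or -0.23 with that scaling, and RIPK3 had -0.09, or -0.42. RIPK3, the kinase of necroptosis, overlapped between the groups, at 8.06 ± 0.05 with vehicle and 8.15 ± 0.10 log2 CPM at baseline (SD, n = 3 each).

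Of the kinases below MyD88, IRAK1 had a positive value and IRAK4 a value near 0 when scaled over all sgRNAs. IRAK1 had a log2 fold change of 0.13 ± 0.16 (SD, 4 sgRNAs), or -0.20 when scaled to the non-targeting sgRNAs. Its sgRNA 1 rose by 0.34 ± 0.11 (SE; edgeR FDR 0.021), at 593.8, 685.9 and 708.9 CPM with vehicle against 581, 471.8 and 517 CPM at baseline. IRAK4, the upstream kinase of the pair, had -0.027 ± 0.18, with 2 of its 4 sgRNAs lower, and -0.36 when scaled to the non-targeting sgRNAs.

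At the level of sgRNAs, 3 of the 40 were called higher (IKBKB sgRNA 3, RIPK1 sgRNA 1, IRAK1 sgRNA 1) and 1 lower (TBK1 sgRNA 2), against 6.26% of all sgRNAs higher and 12.8% lower. No gene had more than 1 called sgRNA in this fit, while DESeq2 called 2 of RIPK4 and the fit without vehicle replicate 3 called 2 of RIPK1. Without baseline replicate 2 only RIPK1 sgRNA 1 of these remained called. RIPK1 sgRNA 1 was called whichever of the 6 libraries was left out. Vehicle and baseline libraries did not overlap for 3 of the 10 genes, IKBKB, RIPK1 and RIPK4, all higher when scaled over all sgRNAs, against 43.9% of all genes in either direction.

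The non-targeting sgRNAs had a median log2 fold change of 0.31 between vehicle and baseline when libraries were scaled over all sgRNAs. All 10 genes lay below that median, as did 98.4% of all genes. Relative to it RIPK1 was at -0.015, IKBKB at -0.12, CHUK at -0.19 and TBK1 at -0.51. Scaled to the non-targeting sgRNAs, which moved the median of all genes to -0.32, 18 of the 40 sgRNAs were called lower and 1 higher, against 1421 and 11 of all 3145. In that scaling none of the 10 genes passed the gene test. It called 48 of all genes lower and 2 higher, against 51 and 3 when scaled over all sgRNAs. That test ranks sgRNAs within the library, so it cannot tell whether a gene lies below the non-targeting sgRNAs. No test of gene levels was run in that scaling.

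**Figure D2:**
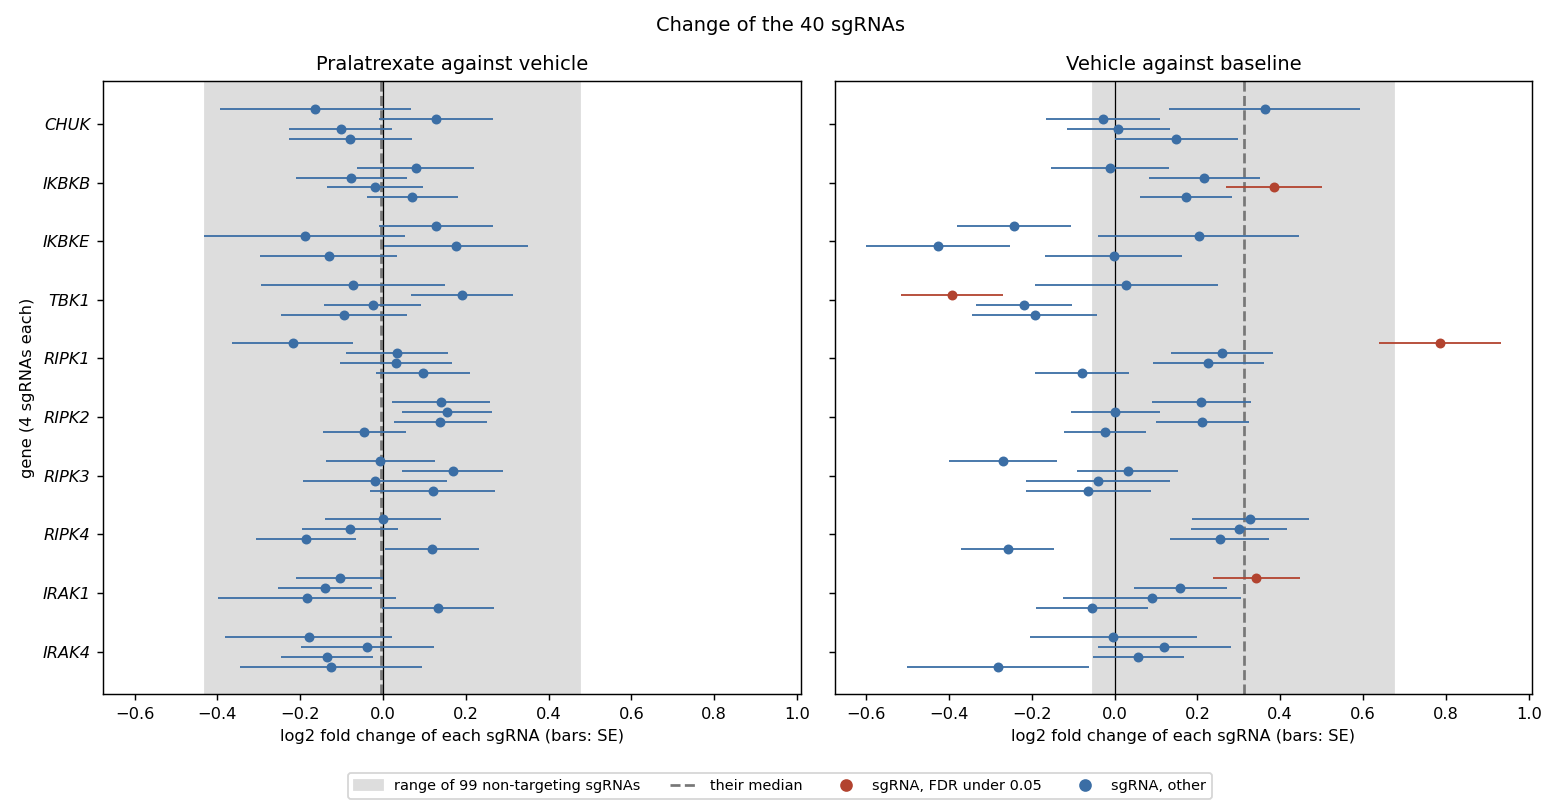
Log2 fold change of each of the 40 sgRNAs (points, bars are SE), 4 per gene with sgRNA 1 uppermost, for pralatrexate against vehicle and for vehicle against baseline, scaled over all sgRNAs. Grey marks the range of 99 non-targeting sgRNAs and the dashed line their median, which is 0.31 for vehicle against baseline. RIPK1 sgRNA 1 lies above that range at 0.79, while no sgRNA is called for pralatrexate against vehicle.

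Pralatrexate was compared with vehicle to ask whether loss of any of these kinases changed how cells grew in the antifolate. None of the 10 genes passed the gene test, against 0.524% of all genes depleted and 0% enriched. Log2 fold changes ran between -0.12 for IRAK4 and 0.10 for RIPK2, with a median of -0.0094, against 0.0052 over all genes. At an unadjusted p under 0.05, 1 of the 10 was enriched, RIPK2, and 0 were depleted, against 41 and 30 of the 763 genes. None of the 40 sgRNAs was called, against 0.0318% of all sgRNAs lower and 0% higher, and 0 of the 40 had an unadjusted p under 0.05, against 176 of all 3145. DESeq2 called 0 of the 40 as well. Their log2 fold changes had an SD of 0.12, against 0.14 for the 99 non-targeting sgRNAs and 0.19 for the 3046 targeting ones.

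RIPK2 had the highest value with the drug. Its level was 9.08, 9.02 and 9.18 log2 CPM in pralatrexate libraries, against 9.04, 8.91 and 9.03 in vehicle libraries, and the groups overlapped. sgRNAs 1, 2 and 3 had log2 fold changes of 0.14, 0.15 and 0.14, and sgRNA 4 had -0.045. The mean was 0.10 ± 0.10 (SD, 4 sgRNAs), with an FDR for enrichment of 0.76 by rank aggregation. It was 0.051 without pralatrexate replicate 3 and 0.056 without vehicle replicate 2.

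IRAK4 was the only one of the 10 with all 4 sgRNAs lower with pralatrexate, at -0.18, -0.04, -0.13 and -0.13. Its level was 7.76, 7.50 and 7.58 log2 CPM in pralatrexate libraries, against 7.91, 7.61 and 7.72 in vehicle libraries. The groups overlapped, but the pralatrexate library was lower in all 3 same-numbered pairs, with differences of -0.15, -0.11 and -0.13 log2 units. The log2 fold change of -0.12 ± 0.06 (SD, 4 sgRNAs) had an FDR for depletion of 1. limma with the replicate number as a block, added after the values were seen, gave a 95% interval between -0.31 and 0.05 and an FDR of 0.96. With a library left out the value ran between -0.21, without pralatrexate replicate 1, and -0.030, without vehicle replicate 1. IRAK1, its partner below MyD88, had -0.07 ± 0.14, with 3 of 4 sgRNAs lower and an FDR of 0.98.

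RIPK3 was the only one of the 10 whose libraries did not overlap between pralatrexate and vehicle, against 7.08% of all genes. It stood at 8.13, 8.13 and 8.13 log2 CPM with pralatrexate, against 8.12, 8.02 and 8.05 with vehicle. The highest vehicle library lay only just below the pralatrexate libraries, which were close together. The log2 fold change was 0.07 ± 0.09, with 2 of 4 sgRNAs lower, and the FDR for enrichment was 0.96.

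The remaining 6 genes lay between -0.054 and 0.013. RIPK1 had -0.014, IKBKB 0.013, IKBKE -0.0045, TBK1 -0.00051, RIPK4 -0.037 and CHUK -0.054. The signs of RIPK1, IKBKB, IKBKE, TBK1, RIPK4 and CHUK turned under at least 1 alternative, so no direction is given for them. In RIPK1, sgRNA 1 had -0.22 ± 0.15 (SE), and the other 3 had 0.03, 0.03 and 0.10.

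A difference that misses the threshold does not show that the groups were alike, so the 95% intervals of limma, fitted on the gene levels, are given. For pralatrexate against vehicle the interval of TBK1 ran between -0.16 and 0.17 and that of IKBKE between -0.19 and 0.18 on the log2 scale. It ran between -0.15 and 0.12 for RIPK1 and between -0.11 and 0.14 for IKBKB. That of IRAK4 reached lowest, to -0.31, or 0.804 of the vehicle level, and that of CHUK reached -0.22. The intervals of RIPK3 and RIPK2 reached highest, to 0.22 and 0.20, or 1.17-fold and 1.15-fold. All 10 intervals held 0. They did so too with the replicate number as a block, where none of the 10 was called. In the same-numbered pairs, IRAK4 and CHUK were lower and RIPK2 and RIPK3 higher with pralatrexate in all 3, so 4 of the 10 genes kept 1 direction over the pairs, against 26.1% of all genes.

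**Figure D3:**
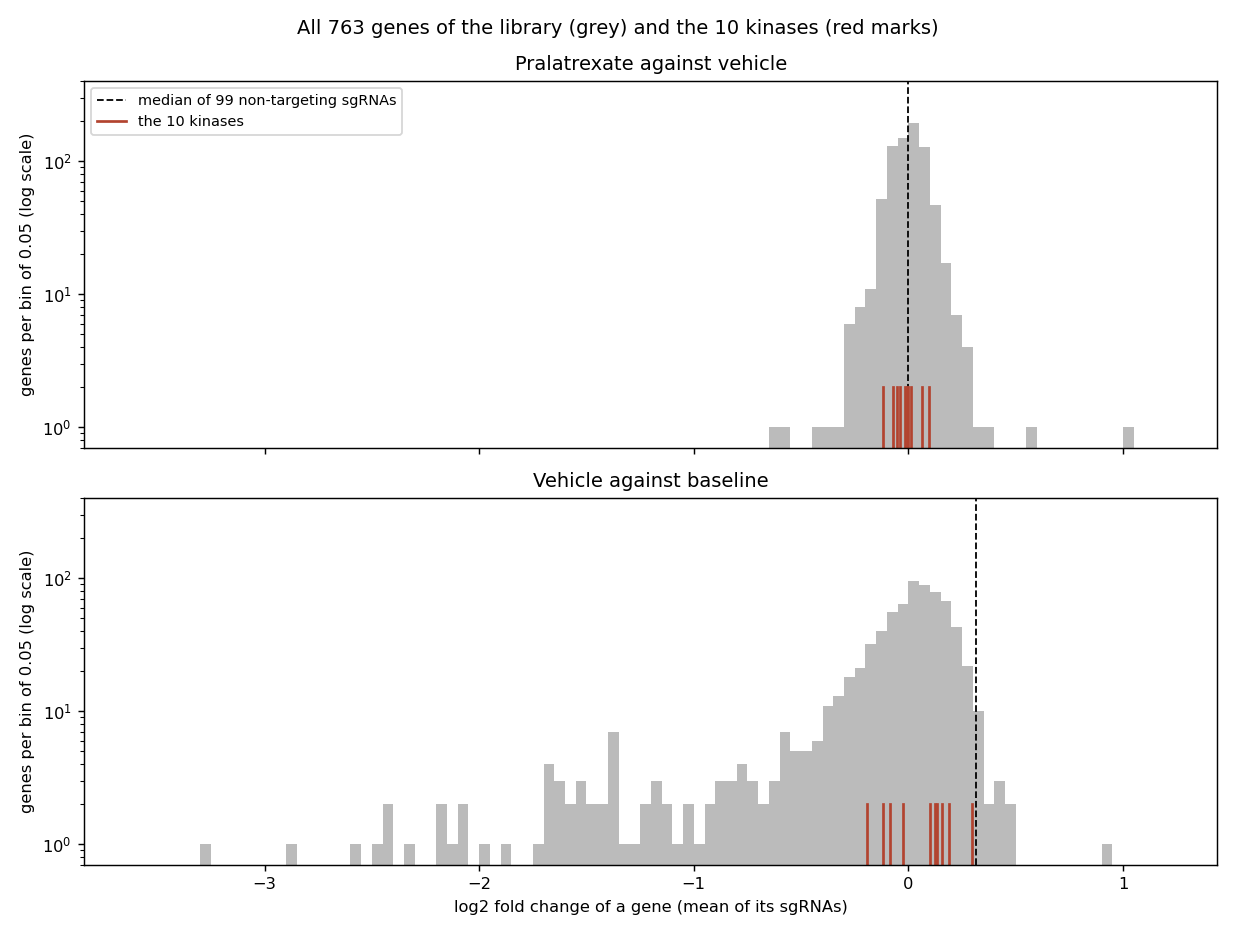
Log2 fold change of all 763 genes (grey, counts on a log axis, bins of 0.05) and of the 10 kinases (red marks) for pralatrexate against vehicle above and vehicle against baseline below, scaled over all sgRNAs. The dashed line is the median of 99 non-targeting sgRNAs. The 10 lie between -0.12 and 0.10 with pralatrexate and between -0.19 and 0.30 with vehicle, away from the tail of strongly depleted genes.

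Pralatrexate was also compared with baseline. This comparison shares its pralatrexate libraries with the comparison against vehicle and its baseline libraries with vehicle against baseline, so its values are not independent of theirs. None of the 10 genes passed, against 7.21% of all genes depleted and 0.262% enriched, and 2 of the 10, RIPK1 and RIPK2, were enriched at an unadjusted p under 0.05 and 0 depleted, against 67 and 113 of the 763 genes. RIPK1 stood at 8.71, 8.57 and 8.67 log2 CPM with pralatrexate, against the baseline values above, a log2 fold change of 0.28 (FDR 0.55), or -0.037 when scaled to the non-targeting sgRNAs. IKBKB had 0.20 and RIPK2 0.20, which became -0.12 and -0.13 with that scaling. TBK1 stood at 7.97, 7.94 and 7.96 log2 CPM with pralatrexate, below all 3 baseline libraries. Its log2 fold change was -0.19, with all 4 sgRNAs lower and an FDR for depletion of 0.50, and it was -0.094 without baseline replicate 3.

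Of the 40 sgRNAs, 4 were called higher with pralatrexate than at baseline and 0 lower, against 5.98% higher and 13.1% lower over all sgRNAs. They were RIPK1 sgRNA 1 at 0.57 (edgeR FDR 0.0057), IKBKB sgRNA 3 at 0.36 (FDR 0.026), and RIPK2 sgRNAs 1 and 3 at 0.35 each (FDR 0.039 and 0.028). RIPK2 had 2 called sgRNAs in this fit. DESeq2 called 6 of the 40, all higher, with RIPK1 sgRNA 2 and RIPK4 sgRNA 1 besides these 4. RIPK2 sgRNA 1 had 358.9, 391.2 and 400 CPM with pralatrexate, against 303.2, 297.5 and 302.1 CPM at baseline. Scaled to the non-targeting sgRNAs, 14 of the 40 were called and all 14 were lower. Without baseline replicate 2 the count was 0, and without baseline replicate 1 or pralatrexate replicate 3 it was 1, RIPK1 sgRNA 1. Without pralatrexate replicate 2 it was 3, RIPK1 sgRNAs 1 and 2 and RIPK2 sgRNA 3. Libraries did not overlap for 4 of the 10 genes, IKBKB, RIPK1 and RIPK2 higher and TBK1 lower when scaled over all sgRNAs, against 45.9% of all genes.

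A further 18 genes of the library that signal to or with these kinases were read as a list, and all 18 were in the table. The list holds the other IRAKs, the necroptosis effector MLKL, MAP3K7 and its partner TAB1, which activate the IKK complex, the NF-κB-inducing kinase MAP3K14, and kinases of antigen receptor signalling. None of the 18 passed the gene test in any of the 3 comparisons. Their median log2 fold change was 0.0083 for pralatrexate against vehicle and 0.027 for vehicle against baseline, against 0.0052 and 0.018 over all genes. With pralatrexate against vehicle they ran between -0.10 and 0.09.

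IRAK2, a kinase-like relay that works beside IRAK1, had log2 fold changes of 0.0046 for pralatrexate against vehicle and 0.07 for vehicle against baseline. IRAK3, a restraint on Toll-like receptor signalling that is best known from macrophages, had 0.09 and -0.19, with FDRs of 0.96 for enrichment and 0.78 for depletion. For vehicle against baseline, 1 gene of the list was depleted at an unadjusted p under 0.05 and is named after its value was seen. PRKCB, a protein kinase C of B cell receptor signalling, had -0.31 with 4 of 4 sgRNAs lower (FDR 0.12).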

How the data were processed

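The authors deposited raw counts of reads per sgRNA, not normalized, for all 9 libraries. The submitters' processing notes name Bowtie 1.0.0, and how reads were counted is not given in the sources used here. Gene tables that the authors made of the screen hold their own fold changes and p-values and were not used. No sgRNA sequences were used here.

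sgRNAs with a mean under 30 reads were removed, which took out 7 of 3152 and none of the 40. All 9 libraries entered 1 quasi-likelihood fit in edgeR 4.0.16 (R 4.3.3), with TMM scaling and no term besides group. The study used MAGeCK's rank aggregation, which was run here on the one-sided edgeR p-values. sgRNAs with a p under 0.25 entered a gene's score, and its p came from the exact distribution of the score for uniform ranks. log2 CPM used a prior count of 2. Alternatives used DESeq2 1.42.0 and limma 3.58.1. Scripts were tested on simulated data, with all sgRNAs of a changed gene shifted alike. Recovery was counted for vehicle against baseline. Of 10 genes at each size, the gene test recovered 2 at a log2 fold change of -0.3, and 8 at -0.5 and at 0.5. It thus mostly missed changes of -0.3. Increases smaller than 0.5, and changes between pralatrexate and vehicle, were not simulated.

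All 10 genes were named. Of the 18 pathway genes, those passing the gene test were to be named, plus IRAK2 and IRAK3. The genes and lists were chosen with earlier results of these data known.

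Within groups, the variance between any 2 libraries was 10.7 to 25.8 times that of read sampling, so none was the same library deposited again. Same-numbered pralatrexate and vehicle libraries deviated together (r = 0.17, 0.20 and 0.19 across sgRNAs, which are not independent), so their numbers were read as pairing them. For baseline the correlations were weaker, so its numbers were not read that way. Same-numbered baseline and vehicle libraries had r = 0.071, 0.022 and 0.062, against -0.071 to 0.011 for differently numbered ones. Same-numbered baseline and pralatrexate libraries had r = 0.021, -0.031 and -0.0065.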

Additional observations from a re-analysis of the deposited data

How the results depend on the processing

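No gene of the 10 was called under DESeq2, the other filters, the compared groups alone, the replicate block, scaling to the non-targeting sgRNAs, or with any library left out. The ranks behind the gene test change little with the scaling, so that alternative could not show depletion relative to the non-targeting sgRNAs. Tests of the gene's level did call some of the 10. For vehicle against baseline edgeR on summed reads called 4 of 10 (TBK1 lower; IKBKB, RIPK1 and IRAK1 higher) and limma on gene means 2 (IKBKB and RIPK1), where these tests called 37.7% and 34.3% of all genes. For pralatrexate against baseline they called 4 (TBK1 lower; IKBKB, RIPK1 and RIPK2 higher) and 3 (IKBKB, RIPK1 and RIPK2), against 38.7% and 35.3% of all genes. These tests ask whether a gene's mean differs between libraries, and do not ask whether its sgRNAs stand out in the library.

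The number of sgRNAs called for vehicle against baseline was 4, and 7 with DESeq2 (25.9% of all sgRNAs), 19 with scaling to the non-targeting sgRNAs (45.5%), and 1 to 4 with a library left out. For pralatrexate against baseline it was 4, 6 with DESeq2 (24.6%), 14 with that scaling (43.2%), and 0 to 4 with a library left out. Among all sgRNAs, the calls for vehicle against baseline were 401 lower and 197 higher, and 1421 lower and 11 higher with that scaling.

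Scaled to the non-targeting sgRNAs, log2 fold changes for vehicle against baseline were -0.21 for CHUK, -0.15 for IKBKB, -0.036 for RIPK1, -0.23 for RIPK2, -0.18 for RIPK4 and -0.20 for IRAK1. For pralatrexate against baseline they were -0.25, -0.12, -0.037, -0.13, -0.20 and -0.26 for the same 6 genes. The other 4 were lower still, at -0.45 for IKBKE, -0.53 for TBK1, -0.42 for RIPK3 and -0.36 for IRAK4 for vehicle against baseline, and at -0.44, -0.52, -0.34 and -0.47 for pralatrexate against baseline. The median over all genes was then -0.32 and -0.31.

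For pralatrexate against vehicle the sign of TBK1 turned with scaling to the non-targeting sgRNAs (0.014), DESeq2 (0.0011), a minimum of 300 reads (0.00050), the replicate block (0.0045), summed reads (0.019), limma (0.0059, and the same with the replicate block) and the compared groups alone (0.0033). That of IKBKE turned with the first (0.0086) and with summed reads (0.0059), and that of RIPK1 with summed reads (0.0032). IRAK4 for vehicle against baseline was 0.0091 with summed reads. Without the sgRNA farthest from 0, an alternative added after the values were seen, IRAK4 was 0.058 for vehicle against baseline, RIPK3 was 0.065 for pralatrexate against baseline, and for pralatrexate against vehicle IKBKB was -0.0083, IKBKE 0.057, RIPK1 0.054 and RIPK4 0.013.

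With a library left out, log2 fold changes for pralatrexate against vehicle ran between -0.048 and 0.065 for IKBKB, -0.062 and 0.034 for RIPK1, -0.039 and 0.068 for TBK1, -0.12 and 0.025 for CHUK, -0.10 and 0.11 for IKBKE, and -0.13 and 0.031 for RIPK4. TBK1 for vehicle against baseline ran between -0.27 and -0.093, and RIPK2 and IRAK4 for pralatrexate against vehicle between 0.051 and 0.13 and between -0.21 and -0.030. IRAK4 for vehicle against baseline ran between -0.12 and 0.041, and RIPK3 for pralatrexate against baseline between -0.077 and 0.015.

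The replicate block, the label's number as a term, left the counts of called genes at 0 in all 3 comparisons and those of called sgRNAs at 4, 0 and 4, and changed no other call. limma drew the width of its 95% intervals largely from a trend, fitted over all genes, of the spread between libraries with level. The interval between -0.31 and 0.05 for IRAK4 with pralatrexate against vehicle thus does not measure the spread of IRAK4 alone. The part of depth in the spread between libraries was not tested. The cause of the other changes was not tested.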
